A study of Mus musculus with 12 samples.

Results

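Dlg2, Nrxn3, Cntnap2, Ctnnd2, Magi2 and Auts2 are 6 very long genes of the nervous system, and replication fork direction along them was followed by Okazaki fragment sequencing (OK-seq) in mouse embryonic stem cells (ESCs). They were taken by name, with every 1 kb bin between the annotated start and end of the gene and the 500 kb on either side of it. They are 6 of the 230 protein-coding genes of 500 kb or more on the autosomes and chromosome X, where GENCODE M21 lists 21755 protein-coding genes of any length. A list of 76 other long neural genes served for comparison, and 64 of those were 500 kb or more.

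Very long neural genes are mostly made of intron, and as a class they tend to replicate late in S phase and to lie far from sites of frequent replication initiation. Forks then enter from the flanks and travel far before they meet, with or against the direction of transcription, and genes of this kind are known as common fragile sites when replication is slowed. KMT2C and KMT2D are histone methyltransferases that place the H3K4me1 mark at enhancers, and the study asked how they bear on replication when naive ESCs pass to epiblast-like cells (EpiLCs), a formative state.

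OK-seq captures the short fragments of the lagging strand, labelled here with the thymidine analog EdU, and reads of the Crick strand come from forks that move left to right on the map. The co-directional share was therefore taken as Crick reads over all reads for a gene on the plus strand and as Watson reads over all reads for a gene on the minus strand, so that it is always the percentage of forks moving with transcription. The 6 conditions were naive ESCs and EpiLCs of a control line with loss of KMT2C (control), of cells that lack KMT2C and KMT2D together (dKO), and of cells with catalytic mutations of both enzymes (dCD), with 2 biological replicates in each, or 12 samples. Naive cells were grown with LIF and 2i, and EpiLCs without them. Loss of KMT2C is thus shared by control and dKO cells, and no condition here has both enzymes intact. Per the methods, control and dKO cells are 1 line with a deleted KMT2C and a conditional KMT2D, deleted through Cre-ER by 4-hydroxytamoxifen in the dKO, from a mixed strain background, whereas the dCD cells are an R1 line of 129 background. Line and genotype cannot be told apart in the comparison of dCD with control.

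The authors deposited 1 track per condition with the replicates summed, so there is no spread between replicates, and nothing below is a test. The intervals given are 95% intervals, cover counting error only (Wilson for a share, Newcombe for a difference, exact binomial for a ratio of densities) and compare libraries, not conditions. The dKO and dCD comparisons of a state share the control library. Depth ran from 3655095 reads (naive dCD) to 13601460 reads (EpiLC dCD), with naive libraries at most 4409068 and EpiLC libraries at least 11407678, so each of 10 equal segments of a member gene held 83 to 390 reads in naive and 299 to 1450 reads in EpiLC libraries. Read density over Kmt2c was 1.17 to 1.28 times that of its flanks and over Kmt2d 0.970 to 1.33 times. These ratios show no loss of the whole gene in any library, and bins of 1 kb were not used to look for an exon deletion or a point mutation. Bins with more T than A had a higher Crick share in every library. Values corrected for this T minus A content are given beside many of the shares, segments and steps. Where no corrected value is given, the value is as measured only.

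On mm10, the adhesion receptors are Nrxn3 (chr12:88722876-90334935, plus strand, 1612 kb), a presynaptic neurexin, and Cntnap2 (chr6:45059357-47304213, plus strand, 2245 kb), a neurexin-like protein that organises potassium channels on axons. Ctnnd2 (chr15:30172593-31029341, plus strand, 857 kb) encodes delta-catenin, which binds cadherins. The scaffolds of the synapse are Dlg2 (chr7:90476672-92449247, plus strand, 1973 kb), a protein of the postsynaptic density also called PSD-93, and Magi2 (chr5:19227036-20704792, plus strand, 1478 kb). Auts2 (chr5:131437333-132543344, minus strand, 1106 kb) encodes a nuclear protein that acts with a Polycomb complex in neural development. The genes held ranks 5 (Cntnap2) to 90 (Ctnnd2) in length among the 230. Exons of any transcript covered 0.457% (Cntnap2) to 2.07% (Auts2) of the gene, no other protein-coding gene overlapped any of them, and GC content was 37.8% to 43.6%. T minus A on the coding strand was lowest in Cntnap2 (0.271%) and highest in Auts2 (3.29%), against a median of 1.86% over the 230 genes. In this annotation the full-length Auts2 transcripts are of the processed type, and the longest transcript of the protein-coding type spans 418 kb.

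RefSeq (GRCm38.p6) gave 11 promoters for Dlg2, Nrxn3, Cntnap2, Ctnnd2 and Magi2. The share of forks moving with transcription was measured on both sides of all 11. The 250 bases before the start are shown at 4 of them, the 5′ starts of Magi2 and Ctnnd2 and the internal starts of Magi2 and Nrxn3. CG dinucleotides are in capitals, all sequences are of the plus strand, and these 4 starts were chosen after their values were seen.
Magi2 5′ start, chr5:19226796-19227045: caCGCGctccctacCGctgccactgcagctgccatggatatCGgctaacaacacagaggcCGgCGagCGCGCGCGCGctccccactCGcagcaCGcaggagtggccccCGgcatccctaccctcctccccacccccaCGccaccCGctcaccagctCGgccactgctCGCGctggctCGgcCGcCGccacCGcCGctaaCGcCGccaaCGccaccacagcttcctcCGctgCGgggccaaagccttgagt
Magi2 internal start, chr5:19907268-19907517: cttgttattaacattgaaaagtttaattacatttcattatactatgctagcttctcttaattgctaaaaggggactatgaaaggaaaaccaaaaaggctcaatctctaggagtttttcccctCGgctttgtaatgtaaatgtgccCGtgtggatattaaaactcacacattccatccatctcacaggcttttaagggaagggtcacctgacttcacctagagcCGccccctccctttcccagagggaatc
Ctnnd2 5′ start, chr15:30172284-30172533: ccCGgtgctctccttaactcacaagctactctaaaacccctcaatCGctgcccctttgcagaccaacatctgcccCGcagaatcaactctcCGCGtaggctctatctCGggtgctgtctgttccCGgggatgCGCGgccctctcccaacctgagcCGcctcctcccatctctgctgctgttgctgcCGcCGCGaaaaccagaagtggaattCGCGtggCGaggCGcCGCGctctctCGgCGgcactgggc
Nrxn3 internal start, chr12:89812233-89812482: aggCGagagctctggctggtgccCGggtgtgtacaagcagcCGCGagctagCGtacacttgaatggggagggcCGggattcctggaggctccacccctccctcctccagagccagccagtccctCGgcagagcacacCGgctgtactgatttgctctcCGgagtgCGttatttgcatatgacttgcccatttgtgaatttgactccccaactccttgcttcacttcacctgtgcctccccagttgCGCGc
The Magi2 5′ window held 29 CG and the Ctnnd2 window 21, numbers reached by 6.78% and 16.3% of the 32851 promoters in the same table. The Magi2 5′ window reaches into the first exon of GENCODE, the Ctnnd2 window lies just upstream of the gene, and both internal windows lie in introns. The internal Nrxn3 window held 12 (reached by 33.5%) and the internal Magi2 window 3 (reached by 71.0%), against a median of 6 CG.

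Over the whole gene, the co-directional share ranged from 40.7% to 56.6% across all 6 genes and all 6 libraries. Cntnap2 was lowest in every library, with all 6 intervals below 50%. Its share was 44.9% in the control, 42.5% in the dKO and 40.7% in the dCD library of naive ESCs, and 44.3%, 43.5% and 43.1% in those of EpiLCs, and 6.52 to 10% of the 230 genes lay below it. Magi2 was the second lowest in every library, at 45.3 to 48.6%. Dlg2 (52.4 to 55.6%), Nrxn3 (53.6 to 55.8%) and Auts2 (53.3 to 56.6%) had values above 50% in every library as measured, and their intervals overlapped one another in the naive control. Ctnnd2 ranged most, from 46.5% in naive dCD to 54.7% in the naive control. The median of the 230 genes was 51.9% to 53.0%.

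The share of Auts2 moved most with base composition among the 6 genes. After correction for T minus A content it was 47.4 to 51.1%, against 53.3 to 56.6% as measured. The corrected share of Dlg2 was 49.1 to 52.2%, lowest and below 50% in naive dKO, and that of Nrxn3 50.4 to 52.2%. For Cntnap2, the gene with the lowest T minus A content, the same step left 41.3 to 45.1%.

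The share was far less even along the genes than over them. Each gene was divided into 10 equal segments, numbered from its 5′ end. With these, forks at the 5′ end of Dlg2 and Auts2 moved mostly with transcription and forks at the 3′ end of Dlg2, Cntnap2 and Magi2 mostly against it. Segment 10 of Magi2 was 28.8% to 41.5%, with intervals below 50% in all 6 libraries. The change from 5′ to 3′ was taken as the share in the last 3 segments minus that in the first 3, and -10 percentage points or lower was counted. In the naive control 3 of the 6 genes (Dlg2, Cntnap2 and Auts2) were counted, against 60.4% of the 230 genes, and in the EpiLC control 4 (these and Ctnnd2), against 56.5%. Ctnnd2 was above this limit in the EpiLC control after correction for T minus A content, at -8.04. In the mutants, 5 were counted in naive dKO (against 65.7%), 6 in naive dCD (73%), 4 in EpiLC dKO (60.4%) and 4 in EpiLC dCD (61.3%). As measured, the counts in both controls lay close to that background, and those in the naive mutants were 1 to 2 genes above it. After correction for T minus A content, Nrxn3 in naive dKO (-7.08) no longer reached the limit. Neither did Ctnnd2 (-8.83) and Auts2 (-6.32) in EpiLC dKO. Of the 64 other neural genes, 30 were counted in the naive and 25 in the EpiLC control library.

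**Figure D1:**
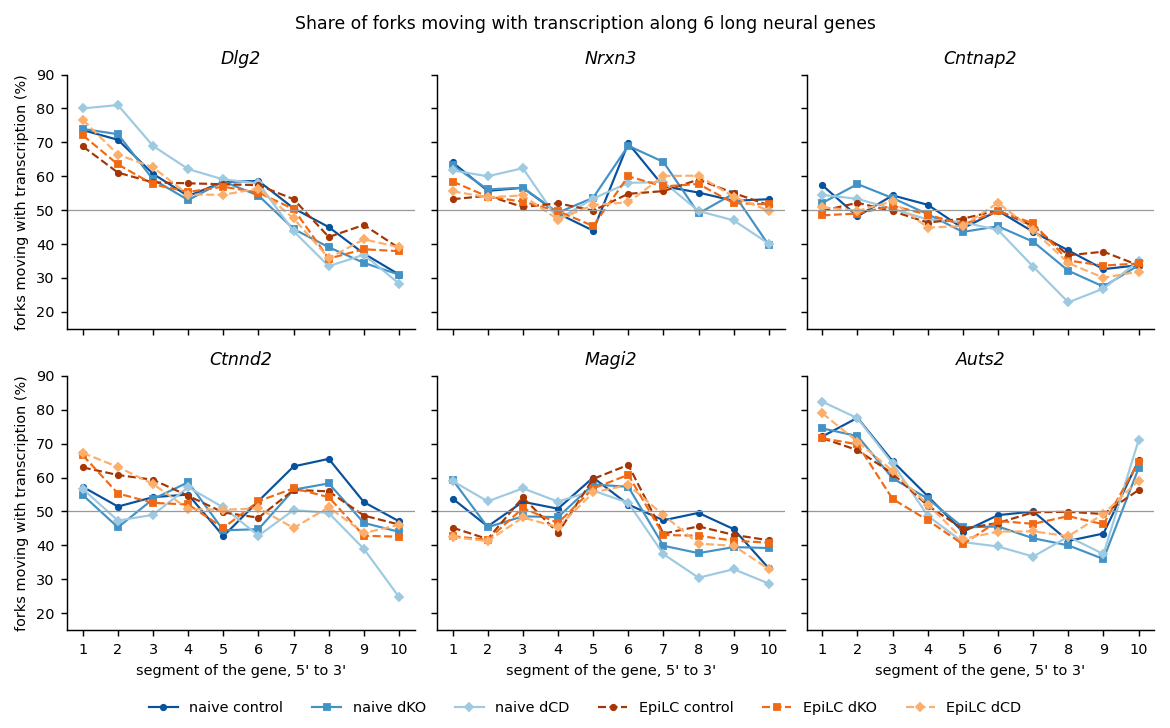
Percentage of forks moving with transcription in each segment of the 6 genes, ordered from 5′ to 3′, with 1 line per library (naive in blue with solid lines, EpiLC in orange with broken lines) and a grey line at 50%. Dlg2 falls from 73.6% to 31.0% in the naive control, Auts2 is high at its 5′ end and again in segment 10, and Nrxn3 stays between 39.6% and 69.7%.

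As measured, Nrxn3 had the smallest change from 5′ to 3′ of the 6 genes in EpiLCs. Its segment 1 was 64.1% in the control, 63.2% in the dKO and 61.7% in the dCD library of naive ESCs, and 53.2%, 58.4% and 55.6% in those of EpiLCs. With T minus A content corrected, it was 54.3% to 56.4% in naive ESCs and 48.4%, 53.4% and 50.6% in EpiLCs, with the EpiLC control below 50%. The last 3 minus the first 3 segments were -5.11, -10.5 and -15.7 percentage points in the naive control, dKO and dCD libraries and 2.58, -1.02 and 0.293 in the EpiLC ones, so that 91.7% of the 230 genes had a lower value in the EpiLC control. After correction they were -1.51, -7.08 and -11.7 in naive ESCs and 4.87, 1.37 and 2.37 in EpiLCs. The naive control was then near 0, EpiLC dKO had the opposite sign, and in the EpiLC control the change of Magi2 (-4.10) was smaller in size. The middle of the gene held a rise in some libraries of both states. The naive control went from 44.0% (38.2 to 49.9) in segment 5 to 69.7% (64.0 to 74.8) in segment 6, and naive dKO reached 69.0% there, while the EpiLC control had 54.8% (51.1 to 58.5). EpiLC dKO went from 45.3% (41.8 to 48.9) to 60% (56.6 to 63.3), and in naive dCD the intervals of both segments overlapped, at 53.4% and 58.0%.

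The largest rise inside Nrxn3 in the naive control, between windows of 100 kb, lay 47.8% into the gene, a position chosen in that library. At the same position the step was 17.6 in naive dKO, 13.3 in naive dCD, and 10.7, 21.3 and 7.71 percentage points in the EpiLC control, dKO and dCD. The internal start of Nrxn3 shown above lies further downstream and had steps of -3.54 to 9.57 percentage points, of which that of EpiLC dKO alone had an interval without 0. At the other 2 internal starts of Nrxn3 in RefSeq no interval lay above 0. The largest rise of the EpiLC control lay elsewhere, 85.6% into the gene. There the naive control, dKO and dCD steps were 5.11, 1.21 and 1.94 percentage points, with intervals that held 0. EpiLC dKO had 11.9 and EpiLC dCD 0.610. At the 5′ end of the gene there was no step upward, with values of -10.5 to 1.44 percentage points, and in EpiLC dCD the interval lay below 0.

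Cntnap2 was close to an even split over its first 6 segments, at 43.6% to 57.7%, and below it at its 3′ end. Segment 9 was 32.6% in the control, 27.4% in the dKO and 26.9% in the dCD library of naive ESCs, and 37.7%, 33.6% and 30.1% in those of EpiLCs. All 6 libraries were low there, and 4 to 6 of the 10 segments had intervals below 50% in each library. The last 3 minus the first 3 segments were -18.8, -23.7 and -24.3 percentage points in the naive control, dKO and dCD libraries and -14.5, -15.3 and -19.1 in the EpiLC ones. Corrected for T minus A content, segment 9 was 29.1% to 39.2% and the 5′ to 3′ change -19.3 to -11.9 percentage points. The gene had no step at its start that held across libraries, with -3.85 to 7.52 percentage points, and no interval without 0. Counted from the RefSeq start, 0.704 kb further on, EpiLC dKO had 7.89 (0.780 to 14.9). The internal RefSeq start of Cntnap2, poor in CG, lies 97.3% into the gene, so that its windows overlap those of the gene end. The step there was 14.3, -5.14 and 0.885 percentage points in the naive control, dKO and dCD libraries and 8.03, 7.15 and 7.24 in the EpiLC ones. The interval was above 0 in the naive control and all 3 EpiLC libraries, and after correction these 4 steps were 6.19 to 12.6.

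In Ctnnd2 the share was highest at the 5′ end in EpiLCs, and in segments 7 and 8 in the naive control. Segment 1 was 57.3% in the control, 54.8% in the dKO and 56.6% in the dCD library of naive ESCs, and 63.0%, 66.6% and 67.3% in those of EpiLCs. All EpiLC values were above all naive ones, also after correction for T minus A content (59.6% to 63.2% against 49.0% to 51.8%). Over the 6 genes, the naive and EpiLC libraries did not overlap in 20 of 60 segments, against 22.4% of the segments of the 230 genes, and in 15 once corrected, against 19%. Each gene had 2 to 4 such segments as measured. The step at the start, the share in the 100 kb after it minus that in the 100 kb before it, was 1.79, 11.6 and 9.42 percentage points in the naive control, dKO and dCD libraries and 15.2, 17.3 and 22.4 in the EpiLC ones. The 3 EpiLC libraries again lay above the 3 naive ones, and their intervals were above 0, whereas among the naive libraries only that of dKO was. After correction for T minus A content the EpiLC steps were 11 to 16.9 and the naive steps -4.07 to 3.79 percentage points.

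The rise inside Ctnnd2 lay 57.2% into the gene, at chr15:30662593 in an intron and 16.1 kb from the annotated start of a transcript with a retained intron. This position, the largest rise between windows of 100 kb, was chosen in the EpiLC control and was the largest in the naive control too. There the naive steps were 20.8 (10.3 to 30.6) in the control, 25.1 (14.0 to 35.4) in dKO and 15.4 (2.93 to 27.2) percentage points in dCD. The EpiLC dKO and dCD steps were 9.66 and 1.51, and the interval of the last held 0. Further 3′ the naive control was high, with 65.5% in segment 8, and naive dCD was lower, with 49.5% there and 24.8% in segment 10.

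Dlg2 had the steepest fall of the 6 genes. Its segment 1 was 73.6% in the control, 74.0% in the dKO and 80.0% in the dCD library of naive ESCs, and 68.8%, 72.1% and 76.7% in those of EpiLCs. Its segment 10 was 31.0% in the control, 31.0% in the dKO and 28.3% in the dCD library of naive ESCs, and 38.8%, 37.9% and 39.1% in those of EpiLCs. Every library went from above to below 50% between segments 6 and 8. The last 3 minus the first 3 segments were -31.1, -34.3 and -44.3 percentage points in the naive control, dKO and dCD libraries and -21.1, -27.5 and -30.2 in the EpiLC ones, and 5.22 to 12.2% of the 230 genes had a lower value. Correction for T minus A content left -37.7 to -17.4 percentage points, with segment 1 at 62.1% to 69.0% and segment 10 at 28.5% to 39.0%.

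At the start of Dlg2 the step was 21.1, 21.2 and 13.9 percentage points in the naive control, dKO and dCD libraries and 19.8, 17.8 and 21.3 in the EpiLC ones, and all 6 intervals were above 0. Part of this moved with base composition, and the steps were 3.64 to 13.6 after correction for T minus A content, lowest in naive dCD. In naive dCD the 100 kb before the start already had 71.3% of forks moving toward the gene, against 49.4% in the naive control. None of the 3 internal RefSeq starts of Dlg2 had a step upward with an interval above 0 in any library. At the most 5′ of them, 31.1% into the gene, the naive steps (-15.2 to -4.99) all lay below the EpiLC ones (-4.06 to 1.13), also after correction (-15.8 to -9.96 against -6.45 to -0.991).

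In Magi2 the steps at both the 5′ and the internal RefSeq start differed between states. At its 5′ start, a promoter rich in CG, the step was 21.4, 23.2 and 12.1 percentage points in the naive control, dKO and dCD libraries and 9.68, 2.82 and -3.94 in the EpiLC ones. The naive values were all above the EpiLC ones, and the interval was above 0 in naive control, naive dKO and EpiLC control. At the internal start, poor in CG and 46.0% into the gene, the order was the opposite, with 3.41, -0.726 and -0.188 percentage points in the naive control, dKO and dCD libraries and 12.9, 18.3 and 8.42 in the EpiLC ones. The 3 EpiLC intervals were above 0 there and the 3 naive ones were not. The 8 internal RefSeq starts lie in Dlg2, Nrxn3, Cntnap2 and Magi2, with none for Ctnnd2 or Auts2. Among them, the states did not overlap at 2, this one and the Dlg2 one, as measured and corrected. This compares with 18.9% of the 122 such starts in the 230 genes, 10 kb or more from both gene ends, and 16.4% after correction. With T minus A content corrected, the 5′ steps were 5.31 to 19.1 in naive ESCs and -8.42 to 4.45 in EpiLCs, and the internal steps -6.18 to 1.33 and 4.50 to 13.2 percentage points.

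In Magi2, segments 1, 2, 4 and 6 did not overlap between the states. Segment 1 was 53.8% in the control, 59.4% in the dKO and 59.0% in the dCD library of naive ESCs, and 45.2%, 42.7% and 42.5% in those of EpiLCs. The naive libraries lay above 50% and the EpiLC libraries below it. Corrected for T minus A content, they were 50.6% to 57.5% and 41.1% to 44.2%. Segments 2 (45.4% to 53.0% against 41.2% to 41.9%) and 4 (48.3% to 52.9% against 43.7% to 46.6%) were likewise higher in naive ESCs. Segment 6 was 52.1% in the control, 57.3% in the dKO and 52.6% in the dCD library of naive ESCs, and 63.7%, 60.8% and 57.8% in those of EpiLCs, and all EpiLC values lay above all naive ones, EpiLC dCD and naive dKO only just. Corrected, these were 48.6% to 53.0% and 54.8% to 61.0%. Segment 5 was as high in naive ESCs (56.2% to 60%) as in EpiLCs (55.6% to 59.6%). At the largest internal rise of the naive control, 37.9% into the gene and chosen in that library, the step was 11.9 percentage points there, 17.7 in naive dKO, -0.132 in naive dCD and 0.420 to 9.18 in EpiLCs. The position chosen in the EpiLC control lay 44.0% into the gene. There the naive control, dKO and dCD steps were 4.61, -4.41 and 6.39, with intervals that held 0. EpiLC dKO had 11.7 and EpiLC dCD 4.96.

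**Figure D2:**
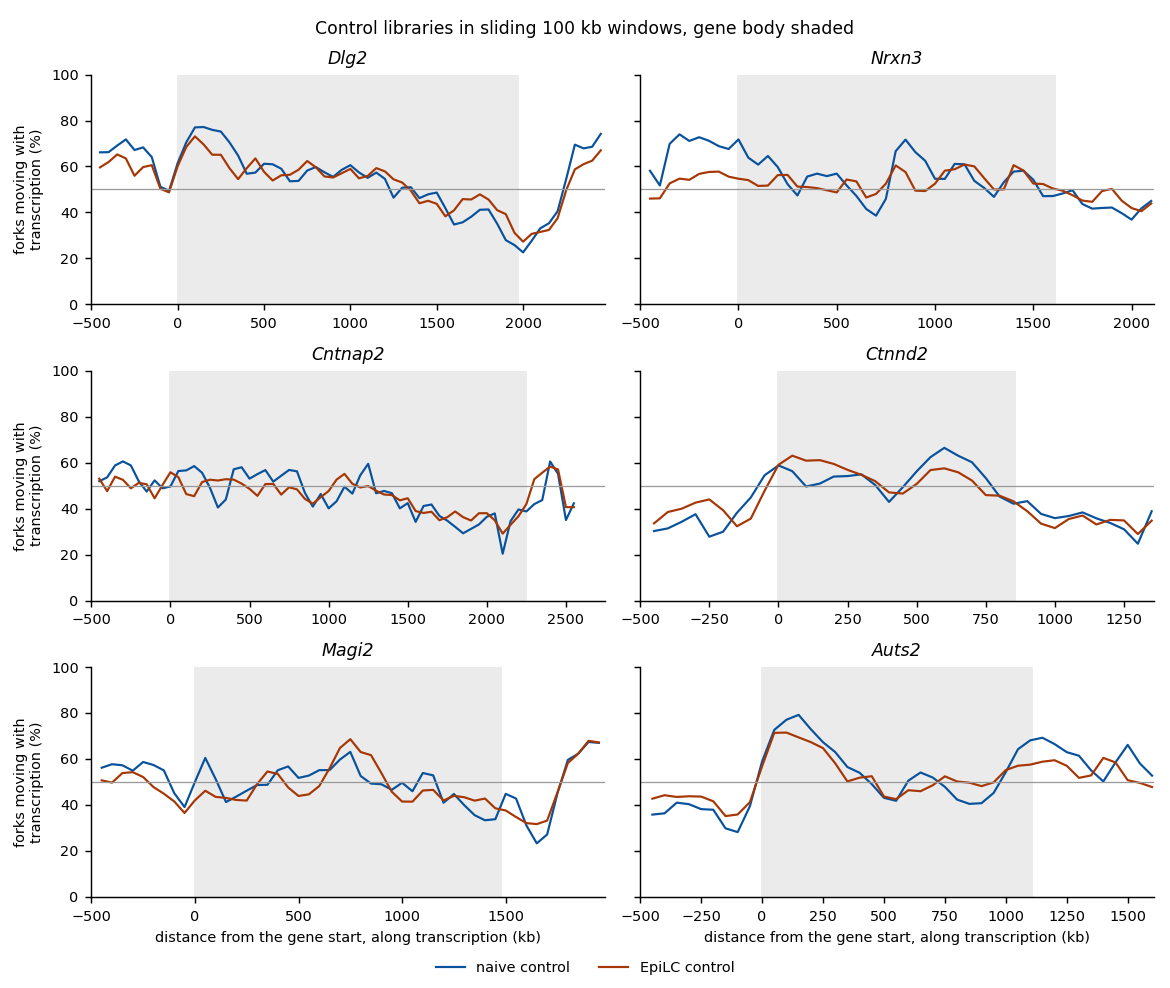
Percentage of forks moving with transcription in sliding windows of 100 kb (steps of 50 kb) in the naive control (blue) and EpiLC control (orange), against distance from the gene start in kb along transcription, with the gene body shaded and a grey line at 50%. The share rises across the start of Dlg2 and Auts2 in both states and is lower in the middle of the body, with Dlg2 falling further to its end and Auts2 higher again at its own, and in Magi2 the naive line rises at the start while the EpiLC line peaks inside the gene.

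Auts2 had the largest step at its start. The share before it was 37.5 to 44.6% and after it 71.4 to 82.5%, giving steps of 33.2, 36.2 and 42.7 percentage points in the naive control, dKO and dCD libraries and 30.2, 27.6 and 37.0 in the EpiLC ones. All 6 intervals were above 0 and 97.0 to 99.6% of the 230 genes had a smaller step. After correction for T minus A content the steps were 15.7 to 28.2 percentage points, lower but still above 10 in all 6 libraries.

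From there the share along Auts2 was lower in the middle of the gene and higher again in segment 10. Segment 5 was 40.3 to 45.3%, and in EpiLCs it was the lowest one. The naive libraries were lowest further on, with 41.3% in segment 8 of the control, 36.0% in segment 9 of dKO and 36.7% in segment 7 of dCD. Segment 10 was 56.3 to 71.0%. With T minus A content corrected, segment 1 was 61.1 to 71.8%, segment 5 34.5 to 40.8% and segment 10 53.8 to 66.0%. Both ends had most forks moving with transcription, and segment 5 was below 50% in every library, with intervals that reached past 50% in the naive control and naive dKO. The rise near the 3′ end lay 89.2% into the gene, at chr5:131557333 in an intron, 18.6 kb from the annotated start of a shorter protein-coding transcript, a position chosen in the EpiLC control. In the 5 libraries not used for the choice the step there was 18.4 (9.43 to 27.0) in naive control, 29.1 in naive dKO, 34.9 in naive dCD, 18.3 in EpiLC dKO and 11.5 (5.99 to 16.9) percentage points in EpiLC dCD. All 5 intervals were above 0. When the position was chosen after correction for T minus A content, another one was found, 63.8% into the gene.

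Rises of 10 percentage points or more at the position chosen in the EpiLC control were present in 3 of the 6 genes in naive control (against 31.7% of the 230 genes), 2 in naive dKO (25.2%), 2 in naive dCD (28.3%), 3 in EpiLC dKO (23.5%) and 1 in EpiLC dCD (25.2%). Steps of 10 percentage points or more at the gene start were counted in 3 of the 6 genes in the naive control (Dlg2, Magi2 and Auts2), against 40.9% of the 230 genes, and in 3 in the EpiLC control (Dlg2, Ctnnd2 and Auts2), against 31.7%. In the mutants 4 were counted in naive dKO (against 41.3%), 3 in naive dCD (38.3%), 3 in EpiLC dKO (35.2%) and 3 in EpiLC dCD (35.7%). Of the 64 other neural genes 21 and 15 were counted. The median start step of the 230 genes was 7.37 in the naive and 5.82 percentage points in the EpiLC library of the control, and 3.42 and 2.76 after correction for T minus A content.

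**Figure D3:**
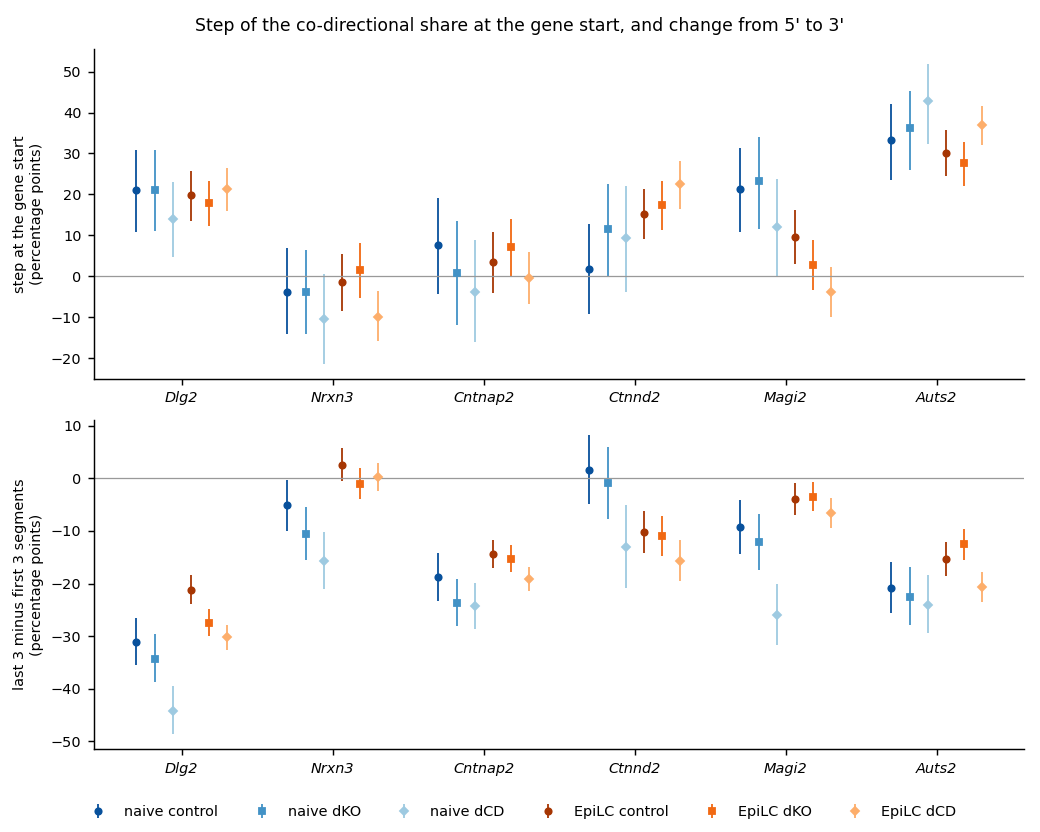
Upper panel, step of the share of forks moving with transcription at the gene start (100 kb after minus 100 kb before, in percentage points), and lower panel, last 3 minus first 3 segments (percentage points), for the 6 genes in the 6 libraries, with bars for the 95% counting interval and a grey line at 0. Auts2 has the highest start steps, from 27.6 to 42.7, and Dlg2 the lowest values in the lower panel, from -44.3 to -21.1.

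Between the states the share over the whole gene differed little. The 3 naive and the 3 EpiLC libraries overlapped in all 6 genes, where 27% of the 230 genes did not overlap (23% after correction for T minus A content, again with 0 of the 6). The EpiLC control minus the naive control ranged from -2.17 (Nrxn3) to 0.280 percentage points (Dlg2), and 0 of 6 genes differed by 5 points or more, against 12.6%. In dKO cells 0 of 6 differed (against 11.3%). In dCD cells 1 did, Ctnnd2 at 6.19 (2.73 to 9.62) percentage points (against 30.9%), and this was 4.74 when bins rather than reads were given equal weight.

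For the last 3 minus the first 3 segments, the naive and EpiLC libraries did not overlap in 4 genes, against 27.4% of the 230. In naive ESCs Dlg2 ranged from -44.3 to -31.1 percentage points and in EpiLCs from -30.2 to -21.1, and Nrxn3, Magi2 and Auts2 were likewise less steep in EpiLCs. The gap was under 1 point in Dlg2 and in Auts2 (-20.9 in the naive control and -20.7 in EpiLC dCD). Corrected for T minus A content, only Nrxn3 and Magi2 did not overlap, 2 genes against 21.7% of the 230. EpiLC dCD was then steeper than the naive control in Dlg2 (-25.6 against -24.2) and in Auts2 (-14.2 against -13.4). Among the controls the EpiLC value was higher by 9.92 (4.59 to 15.1) for Dlg2 and 7.69 (1.91 to 13.4) for Nrxn3, while Ctnnd2 differed in the other direction, by -11.9 (-19.6 to -4.13) percentage points. The median over the 230 genes was 2.88 percentage points higher in the EpiLC control, and 35.7% of them went the way of Ctnnd2. For the start step the states did not overlap in 2 genes, Ctnnd2 (higher in EpiLCs) and Magi2 (higher in naive ESCs), against 21.3% of the 230, and after correction the same 2 genes, against 19.1%.

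In single segments, differences of 10 percentage points or more between EpiLC and naive control were found in 3 of 60 segments (against 17.4%), and in 0 of 30 with 5 parts per gene. In Nrxn3 the EpiLC control differed by -14.9 (-21.2 to -8.13) in segment 6 and by -10.9 in segment 1, and in Magi2 it was higher by 11.7 in segment 6. In dKO cells 4 of 60 segments differed (15.7%), or 9 with bins given equal weight, and in dCD cells 14 (25.3%), of which 4 were in Magi2 and 3 in Ctnnd2. With 5 parts per gene these were 2 and 5 of 30.

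Between mutant and control libraries, the mean share of the 6 genes was slightly lower in the mutants. The intervals of these means cover read counting only, not the spread between genes. In naive ESCs, dKO was lower than control in 6 of 6 genes, with a mean difference of -2.25 (-3.46 to -1.05) percentage points, and dCD in 5 of 6, with -2.99 (-4.23 to -1.74), or -1.64 with bins given equal weight. In EpiLCs, dKO was lower in 5 of 6 genes, with -1.26 (-1.96 to -0.565), and dCD in 5 of 6, with -1.09 (-1.78 to -0.404). Over the 230 genes the 4 means were -0.497, -0.164, 0.296 and 0.473 percentage points in the same order, and 58.7%, 53.9%, 43.9% and 45.2% of them were lower in the mutant. The standard deviation of the difference between those genes was 3.19, 4.62, 1.82 and 2.55 percentage points. Whether the members differ from other long genes was not tested. Over the 64 other neural genes the means were -0.498, -0.550, 0.373 and 0.850. Since dKO and dCD are set against the same control library, the 2 comparisons of a state are not independent.

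Single genes hardly passed a difference of 5 percentage points. None of the 6 did in naive dKO (against 10.4% of the 230 genes), EpiLC dKO (2.17%) or EpiLC dCD (7.83%). In naive dCD 1 did, Ctnnd2 (against 28.7%), whose share was 54.7% in the control and 46.5% in dCD, a difference of -8.23 (-12.2 to -4.23) percentage points. The other 3 comparisons of Ctnnd2 were also below 0, at -4.05 (-7.74 to -0.349) in naive dKO, -2.25 (-4.38 to -0.108) in EpiLC dKO and -1.95 (-4.16 to 0.270) in EpiLC dCD. Of the 230 genes, 2.61% had a lower difference in naive dCD. Cntnap2 had -4.26 (-6.76 to -1.76) in naive dCD, and Magi2 -2.77 (-4.37 to -1.17) in EpiLC dCD. Nrxn3 was within -1.95 and 0.346 percentage points in all 4 comparisons, and each of its intervals held 0.

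**Figure D4:**
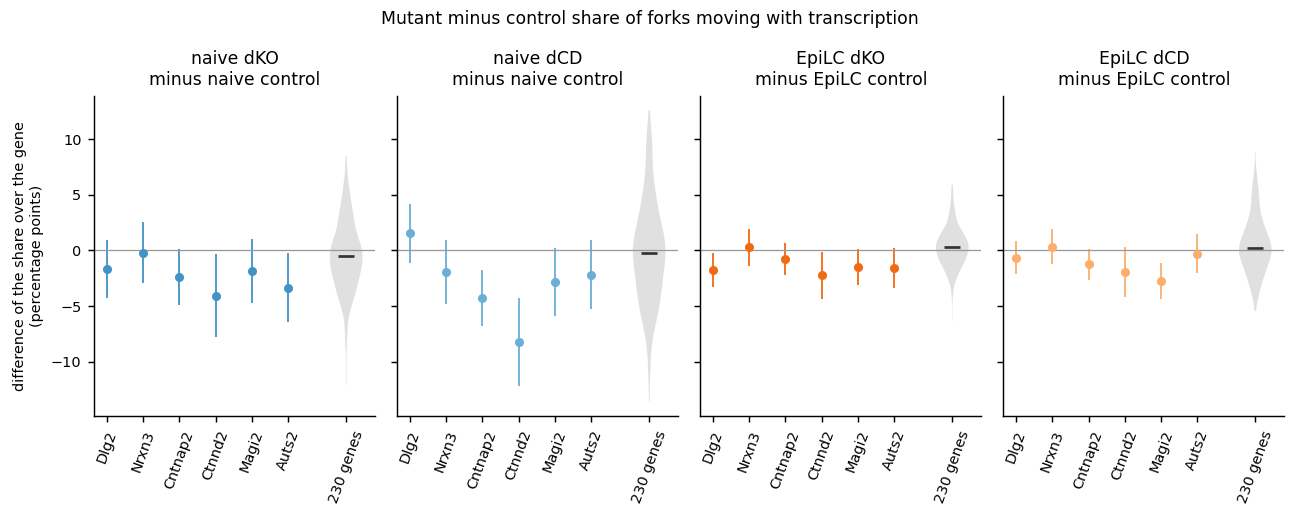
Mutant minus control difference of the share of forks moving with transcription over the whole gene (percentage points) for the 6 genes, 1 panel per comparison, with bars for the 95% counting interval, beside the spread of the same difference over 230 long genes (grey shape, black line at the median). Ctnnd2 in naive dCD lies lowest, at -8.23, and the EpiLC values all lie between -2.77 and 0.346.

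Along the genes, naive dCD had the most segments apart from control. Of the 60 segments, 15 differed from the naive control by 10 percentage points or more, against 28.1% of the segments of the 230 genes, so that the members lay near the background, and 4 of 30 did with 5 parts per gene. Of the 15, 13 were lower in naive dCD, where 15.4% of the segments of the 230 genes were lower by as much. All 5 segments of Ctnnd2 from segment 6 on were among them, with segment 10 at -22.3 (-33.2 to -10.4) percentage points, though the interval of segment 6 held 0. Magi2 segment 8 differed by -19.1 (-28.4 to -9.15) and Cntnap2 segment 8 by -15.3 (-22.3 to -8.06). The 2 segments that were higher in naive dCD lay at the 5′ ends of Dlg2 (segment 2, 10.2) and Auts2 (segment 1, 10.3). In naive dKO 2 segments differed (18.8%), or 5 with bins given equal weight and 0 of 30 with 5 parts per gene, in EpiLC dKO 0 (4.61%) and in EpiLC dCD 1 (7.09%). The counts with equal weight or 5 parts have no share of the 230 genes beside them, since none was computed. The last 3 minus the first 3 segments was lower in naive dCD than in the naive control in 6 of 6 genes, by a median of -11.9 percentage points, against a median of -4.67 over the 230 genes, of which 71.7% were lower. It was also lower than in control in 6 of 6 genes in naive dKO (median -3.09, with 64.3% of the 230 lower) and in EpiLC dCD (median -4.94, 77.4%), and in 4 of 6 in EpiLC dKO (median -0.808, 65.2%). Ctnnd2 had no fall in the naive control, at 1.63 (-4.97 to 8.23), and -13.1 in naive dCD. For Magi2 the difference was -16.8 (-24.4 to -9.01) and for Dlg2 -13.2 (-19.5 to -6.77) percentage points.

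The difference between mutant and control was also compared between the states, by whether the counting interval of naive minus EpiLC held 0. For dCD it did not in 2 of 6 genes for the share over the gene (against 20.9% of the 230), 1 for the last 3 minus the first 3 segments (17.8%) and 0 for the start step (6.96%). For dKO the counts were 0 of 6 for each, against 13.9%, 17% and 4.78%. These counts lay near that background.

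Read density, in reads per kb in the gene over reads per kb in its flanks, was lowest in Dlg2 in every library. Dlg2 had fewer reads than its flanks in every library, at ratios of 0.748, 0.744 and 0.740 in the naive control, dKO and dCD libraries and 0.704, 0.702 and 0.821 in the EpiLC ones, and at most 3.04% of the 230 genes had a lower ratio. Nrxn3 was at ratios of 1.15, 1.06 and 0.990 in the naive control, dKO and dCD libraries and 1.24, 1.13 and 1.19 in the EpiLC ones, the highest of the 6 genes except in naive dCD, where Auts2 and Cntnap2 lay above it. From 55.7% (naive dCD) to 99.1% (EpiLC control) of the 230 genes lay below it. Auts2 (1.0 to 1.09), Ctnnd2 (0.890 to 1.0), Cntnap2 (0.912 to 1.05) and Magi2 (0.914 to 1.02) were near their flanks. With flanks of 250 kb 20 of these 36 ratios lay outside the interval of the ratio given, and with 1000 kb 17 did. How read density relates to replication time or to mapping was not tested.

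Density differences between conditions mostly stayed under 1.2-fold. A ratio 1.2 times higher or lower was reached by 0 of 6 genes in naive dKO over control (against 0% of the 230 genes), naive dCD (1.74%), EpiLC dKO (0%) and EpiLC dCD (0.87%). It was reached by 0 of 6 in EpiLC over naive control (2.17%) and in EpiLC over naive dKO (0%), and by 1 in EpiLC over naive dCD (3.04%). This was Nrxn3 at 1.2 (1.11 to 1.3) times, a value that was under 1.2 with flanks of 250 or 1000 kb. Magi2 was the 1 gene whose naive (0.914 to 0.941) and EpiLC (1.0 to 1.02) densities did not overlap, against 17.4% of the 230. Its EpiLC over naive ratio was 1.09 (1.01 to 1.17) in the control. Some mutant ratios under the limit also had intervals without 1. Among them, Dlg2 in EpiLC dCD over control had 1.17 (1.11 to 1.22). In naive dCD over control Nrxn3 had 0.858 (0.781 to 0.943) and Cntnap2 1.15 (1.05 to 1.26).

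**Figure D5:**
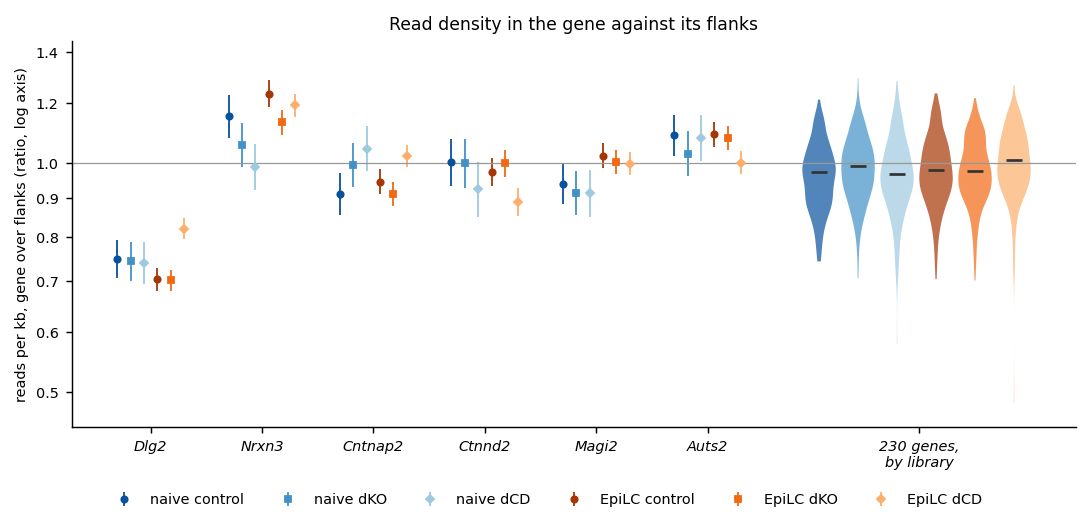
Reads per kb in the gene over reads per kb in the 500 kb on both sides (log axis) for the 6 genes in the 6 libraries, with bars for the 95% counting interval, beside the spread over 230 long genes in each library (line at the median) and a grey line at 1. Dlg2 lies at 0.702 to 0.821 and Nrxn3 at 0.990 to 1.24.

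Across the 60 values of 10 segments and 6 libraries, the long gene most like each member, by Pearson's r among 225 genes with enough reads, was Dlgap2 for Dlg2 (0.918), Grik2 for Nrxn3 (0.623), Dlg2 for Cntnap2 (0.882), Dcc for Ctnnd2 (0.678), Lingo2 for Magi2 (0.679) and Gm42416 for Auts2 (0.893). The 60 values of a gene share their libraries and their segments, so these are descriptions. Among the members themselves r ran from -0.0342 (Magi2 and Auts2) to 0.882 (Dlg2 and Cntnap2), so the 6 genes did not share 1 profile.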

How the data were processed

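OK-seq was analysed in 12 samples of 6 conditions. Per the labels and methods, the authors used Bowtie2 and mm10 for alignment and then counted reads of each strand per bin. The submitters' processing notes also name FastQC, Trim Galore and Picard, and whether duplicates were removed is not given in the sources used here. The deposited signal is read coverage in bins of 1 kb, in which 1 read is worth 0.001, with the 2 replicates of a condition summed and library sizes not equalised. Values were divided by 0.001, which gave whole reads (largest deviation 2.27e-13). A position was read as the end of its bin, since 0 reads then fell in kilobases made of N only, against 3139 if it were the start. In all, 675 bins with over 10 times a library's median were left out, none in the 6 genes or their flanks. Bins were assigned by midpoint, and a segment needed 20 reads. The 6 genes, the list of 76 other neural genes and all call limits were chosen with earlier results of these data known. The genes named beside the 6 are, for each, the gene of 500 kb or more with the highest Pearson's r over its 60 values.

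To correct for T minus A content, each bin's Crick share was taken relative to the 10 bins before and after it, leaving out the nearest 2, and regressed per library on the bin's T minus A content (slopes of 1.21 to 1.82), and the fitted part was subtracted. The scripts were tested on simulated data in which strands were redrawn for the deposited reads. Alternatives covered this step, the bins left out, the weight and edge of bins, the gene span, windows, flanks and call limits. Python 3.11.15, numpy 2.4.6 and scipy 1.17.1 were used.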

Additional observations from a re-analysis of the deposited data

Results flagged for a closer look

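The difference between mutant and control was set against itself in the other state, for 6 genes, both mutants and 3 measures (the share over the gene, the last 3 minus the first 3 segments and the start step), 36 comparisons in all. In 3 of them, all of dCD, the counting interval of naive minus EpiLC lay outside 0, without correction for the number compared. Of the 230 long genes, 20.9% did so for the share and 17.8% for the change from 5′ to 3′ in dCD, so that 2 and 1 of 6 genes are near that background. With 1 pooled library per condition these differences were not tested across replicates. For Ctnnd2 the share over the gene differed between dCD and control by -8.23 percentage points in naive ESCs and by -1.95 in EpiLCs, so that naive minus EpiLC was -6.28 (-10.8 to -1.71). For Cntnap2 the same values were -4.26 and -1.23, or -3.03 (-5.88 to -0.164). For Magi2 the change from 5′ to 3′ differed between dCD and control by -16.8 percentage points in naive ESCs and by -2.72 in EpiLCs, or -14.0 (-22.7 to -5.26). The naive dCD library was the shallowest of the 6, and its part in these differences was not tested.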

How the results depend on the processing

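No paired analysis was possible because the deposited tracks sum the 2 replicates of each condition, and for the same reason no replicate could be left out. Of 1332 values of single genes under alternatives, 1184 stayed within the counting interval of the value reported and 148 did not, of which 53 came from the correction for T minus A content. None of the called values changed sign. Of the alternatives, 4 were chosen after seeing the data, namely internal rises placed in the naive control, internal rises after correction for T minus A content, the overlap of naive and EpiLC libraries after that correction, and bins over 20 times the median left out, and the last moved nothing. Of 217 counts and means under alternatives, 190 were within 1.5 times of the value reported or within its interval, and 27 were not. Leaving out no bins or reading positions as the other bin edge moved none of them. Correcting for T minus A content moved 1 of 28, the genes whose naive and EpiLC values of the last 3 minus the first 3 segments did not overlap, from 4 to 2. With a limit of 3 percentage points in place of 5, the share over the gene was called in 2 genes in naive dKO and in 2 in naive dCD, and with 8 points the 1 call between EpiLC and naive dCD became 0. Calling by a counting interval without 0 gave 2 genes in naive dKO, 2 in naive dCD, 2 in EpiLC dKO, 1 in EpiLC dCD and 2 between EpiLC and naive dCD. With bins given equal weight, the mean difference of naive dCD was -1.64 percentage points, the segments called were 5 in naive dKO and 9 between EpiLC and naive dKO, and the genes called between EpiLC and naive dCD were 0. With 5 segments per gene in place of 10, 0 parts were called in naive dKO, 4 in naive dCD, 0 in EpiLC dCD, 0 between EpiLC and naive control, 2 between EpiLC and naive dKO and 5 between EpiLC and naive dCD, of 30 parts in place of 60. With the span of the longest protein-coding transcript, 1 gene was called between EpiLC and naive dKO for the share and 0 between EpiLC and naive dCD for density. Density at 1.1-fold gave 2 genes in naive dCD, 1 in EpiLC dCD and 2 between EpiLC and naive dCD, and in the last of these 1.3-fold, flanks of 250 kb and flanks of 1000 kb each gave 0. The cause of these shifts was not tested beyond the changed limit or number of parts. Naive libraries held fewer reads, so intervals in segments are wider there.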

Other observations

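At the 3′ ends, Cntnap2 had a rise across its end in 4 libraries. The share in the 100 kb after the end minus that in the 100 kb before it was 3.13, 12.7 and 9.34 percentage points in the naive control, dKO and dCD libraries and 13.2, 12.9 and 12 in the EpiLC ones, and the interval was above 0 in naive dKO and the 3 EpiLC libraries. Auts2 had end steps of -4.18 to 6.72 and Nrxn3 of -9.22 to 5.43 percentage points, and each of their intervals held 0. Dlg2 was lower after its end in all 6 libraries, at -13.0 to -0.370 percentage points, with intervals below 0 in naive dCD, EpiLC dKO and EpiLC dCD. After correction for T minus A content it was higher after its end in the naive control (4.66) and naive dKO (1.63) and lower in the other libraries. Ctnnd2 was lower after its end in all 6 libraries as measured, at -12.7 to -3.78, with intervals below 0 in naive dKO (-12.7), the EpiLC control (-9.33) and EpiLC dCD (-9.76). After correction it was -7.50 to 0.967, above 0 in naive dCD. Magi2 had 11.3 (1.72 to 20.7) in the naive control, and the other 5 intervals, around -9.41 to 5.17, held 0.

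The 2 flanks of a gene could differ in read density. In Magi2 the upstream flank had 0.572 to 0.753 times the reads per kb of the downstream flank, in Cntnap2 0.605 to 0.719 and in Ctnnd2 0.685 to 0.984 times. The flanks of Dlg2 were nearly equal, at 0.980 to 1.13 times. No protein-coding gene lies in the upstream flank of Magi2, Cntnap2, Ctnnd2 or Auts2, and 8 lie in that of Dlg2.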
